A study of Mus musculus with 2 samples.

Results

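The genes described are the 4 Id genes (Id1, Id2, Id3 and Id4), the BMP receptor genes Bmpr1a, Bmpr1b and Bmpr2, the pseudoreceptor gene Bambi, the ligand gene Bmp7 and the signal transducer gene Smad1. They were taken as a named list of 10 genes, not by a rule on their values, though earlier results of these data were known. All 10 were found in both count matrices, among 31053 features at E18 and 31054 at P2. The study profiled single cells around birth in the mouse forebrain, to follow the stem cells of the ventricular-subventricular zone (V-SVZ), the germinal layer that lines the lateral ventricles. One library was made at embryonic day 18 (E18) from CD1 mice, an outbred stock, out of cortex and dorsal V-SVZ dissected above the ventricles. The other was made at postnatal day 2 (P2) from Emx1Cre;R26Eyfpfl/fl mice, out of dorsal and lateral V-SVZ with no cortex. In these mice Cre under the control of Emx1, a gene of the dorsal forebrain, switches on EYFP in cortical progenitors and their descendants. The labels name no treatment. Tissue of both ages was dissociated with papain, and propidium iodide-negative, DRAQ5-positive cells were sorted, that is, intact nucleated cells of every type. With 1 library per age, no test was possible, and age, mouse line and dissection cannot be told apart in any P2 to E18 ratio. How many animals went into each library is unknown here.

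The E18 matrix held 2922 barcodes and 19986915 UMIs (unique molecular identifiers, 1 per captured transcript molecule), and the P2 matrix 2778 barcodes and 42572208 UMIs. The median per barcode was 6292.5 UMIs at E18 and 11764 at P2, and the libraries shared 0 barcodes. Filters left 2475 and 2298 cells. Cells were clustered in each library with the 10 genes left out, so the genes did not define the classes. Classes are named as "like" a type from marker genes. The stem-like class held 91 cells at E18 and 81 at P2, the cycling class 102 and 306, and the oligodendrocyte precursor (OPC)-like class 49 and 82. Neuron-like cells numbered 1817 excitatory and 289 inhibitory at E18, and 217 excitatory, 1076 inhibitory and 200 striatal at P2. A further 38 P2 cells split from the stem-like cells with Slc6a11, Aqp4 and Aldh1l1 in front and are called maturing astrocyte-like. In the stem-like class all 10 stem markers were detected in both libraries. Their summed level was 35969 CPM (UMIs scaled to 1000000 UMIs of the class) at E18 and 27535.5 at P2. It was 31403 in the maturing astrocyte-like cells, so the stem marker sum did not set the 2 P2 classes apart. The summed level of the astrocyte markers was 1352 CPM at E18 and 3438 at P2, against 5715 in the maturing astrocyte-like cells. A P2 cluster of 155 cells matched inhibitory intermediate progenitors by marker level, but Mcm3, Mcm2 and other DNA replication genes led it. In all, 89 P2 cells stayed unnamed.

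Bone morphogenetic proteins are secreted ligands that bring together type I receptors, such as the products of Bmpr1a and Bmpr1b, and type II receptors, such as that of Bmpr2. The type II kinase phosphorylates the type I kinase, which phosphorylates SMAD1 and its close relatives, and these enter the nucleus with SMAD4. The Id genes are among the best known direct targets. Id proteins have a helix-loop-helix domain without the basic part that binds DNA, so they pair with E proteins and keep them from acting with proneural factors. BAMBI resembles a type I receptor without a kinase and dampens signalling. In the V-SVZ, BMP signalling is known for stem cell quiescence and for astrocyte formation, and the antagonist Noggin for favouring neuron production.

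All 10 genes are protein-coding, with positions given here in GRCm38 from GENCODE. Id1 spans chr2:152736251-152737410 on the plus strand, Id2 chr12:25093799-25097140 on the minus strand, Id3 chr4:136143497-136145755 on the plus strand and Id4 chr13:48261228-48266026 on the plus strand. The receptor genes lie at chr14:34410734-34503341 (Bmpr1a, minus), chr3:141837136-142169425 (Bmpr1b, minus) and chr1:59763400-59879014 (Bmpr2, plus). Bmp7 lies at chr2:172868012-172940321 (minus) and Smad1 at chr8:79338395-79399518 (minus). Exons of Id4 overlap 2 non-coding genes on the opposite strand, A330033J07Rik and Gm49291, and exons of Bmpr1a overlap 1, Gm17110. How strand was treated in counting is unknown here, so reads of these 2 genes cannot be told apart from those of their antisense partners.

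RefSeq promoter windows (GRCm38.p6, 250 bases before to 50 after an annotated start) matched 7 of the 10 genes, all but Id1, Bambi and Bmp7, with 9 windows, 3 of them for Bmpr1b. SMAD1 and SMAD4 are known to bind GC-rich sites, among them the palindrome GGCGCC, which reads the same on both strands. It was present once in the windows of Id2, Id4, Bmpr1a and Bmpr2, 4 of the 9 windows, and in 11.9% of all 32851 windows of that length. These 4 windows were 63.3%, 73.3%, 79.3% and 59.3% G or C, against a median of 52.7% over all windows. The other motif searched, the palindrome GTCTAGAC, was in 0 of the 9 windows and in 0.213% of all. A match is a run of letters and no evidence of binding. A stretch is shown for each of the 4 windows with a match, and a link between the palindrome and the level of a gene was not tested. Each reads 5′ to 3′ on the gene's strand with the palindrome in capitals. The Id4 stretch is the whole 250 bases before the RefSeq start (chr13:48260866-48261115), and the others are 26 bases around the palindrome, at chr12:25096308-25096333 (Id2, minus), chr14:34502729-34502754 (Bmpr1a, minus) and chr1:59764164-59764189 (Bmpr2, plus).
Id4: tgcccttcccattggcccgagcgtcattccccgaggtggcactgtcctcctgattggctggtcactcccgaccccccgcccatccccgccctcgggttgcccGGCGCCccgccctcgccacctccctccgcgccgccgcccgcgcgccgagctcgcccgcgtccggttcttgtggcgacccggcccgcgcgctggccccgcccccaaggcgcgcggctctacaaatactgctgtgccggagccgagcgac
Id2: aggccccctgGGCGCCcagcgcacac
Bmpr1a: cgcgcgcgccGGCGCCtcttgctcgc
Bmpr2: ccggcggccgGGCGCCgctgcctgcc
The palindrome began 148 bases before the RefSeq start of Id4, 231 before that of Id2, 198 before that of Bmpr1a and 105 before that of Bmpr2. The GENCODE starts differ from these. By the GENCODE positions above, the stretches of Id2, Bmpr1a and Bmpr2 lie inside the gene and that of Id4 before it.

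The 4 Id genes divided the classes between them. Among classes of 30 or more cells, Id1 and Id3 were highest in stem-like and cycling cells at E18 and in maturing astrocyte-like and stem-like cells at P2, and both were low in most neurons. Id4 was high in stem-like cells and in striatal neuron-like cells, and Id2 was highest in E18 excitatory neurons. Levels are given as CPM, over all UMIs of a class, each with an exact Poisson 95% interval that covers counting error only. UMIs count molecules and were not divided by gene length, and capture can differ between genes. From such a class sum alone, fewer expressing cells and less RNA per cell cannot be told apart.

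Id1, a dominant-negative partner of E proteins, stood at 74.6 CPM (53.6 to 101) in the E18 stem-like class and at 94.1 (75.9 to 115) in the E18 cycling class, and these intervals overlap. In the other E18 classes of 30 or more cells it was at most 9.21, and in the 1817 excitatory neurons it was 0.786 (0.392 to 1.41). At P2 it was 276 (236 to 321) in maturing astrocyte-like cells, 149 (130 to 170) in stem-like cells and 58.4 (53.4 to 63.7) in cycling cells, an order whose intervals do not overlap. The P2 neuronal classes lay between 8.43 and 15.4, below the microglia-like cells at 30.9 (20.7 to 44.4).

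Id3, which acts like Id1, stood at 186 (151 to 225) in E18 stem-like cells and at 151 (128 to 178) in E18 cycling cells, again with overlapping intervals. In E18 excitatory neurons it stood at 0.929 (0.495 to 1.59). At P2 it reached 1034 (954 to 1118) in maturing astrocyte-like cells, against 258 (233 to 285) in stem-like, 72.6 (59.9 to 87.1) in OPC-like and 43.7 (39.4 to 48.4) in cycling cells. The 7 mural-like cells at E18 held 23 Id3 UMIs, or 477 CPM (303 to 716). In the stem-like classes 4 of the 7 mural markers, Vtn, Kcnj8, Higd1b and Abcc9, were at 0 in both libraries, and the whole list summed to 85.5 at E18 and 108 at P2. Of 8 endothelial markers, 6 were at 0 at E18 and 7 at P2, where Slco1c1, also a leading gene of the stem-like cells, carried the whole sum of 265.

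Id4, known from neural precursors, was at 817 (743 to 896) in E18 stem-like cells and 652 (612 to 695) in P2 stem-like cells. Of the other classes of 30 or more cells, the next at E18 was cycling at 209 (181 to 239), then inhibitory at 147 (128 to 169). At P2 the striatal neuron-like cells came next with 564 (536 to 594), followed by inhibitory neurons at 178 (171 to 186) and maturing astrocyte-like cells at 159 (129 to 194), the last pair overlapping. The excitatory, OPC-like, Mcm-led and cycling classes of P2 sat within 94.5 to 102. P2 microglia-like cells held 9.59 (4.38 to 18.2).

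Id2, known from neurons and immune cells as well as from progenitors, stood at 1037 (1021 to 1054) in E18 excitatory neurons and at 496 (441 to 556) in their Eomes-led progenitors. In E18 stem-like, inhibitory and cycling cells it was 180 (146 to 219), 175 (154 to 198) and 148 (125 to 175), values that overlap between neighbours, and in OPC-like cells 56.3 (33.9 to 88.0). At P2 it was 658 (595 to 726) in maturing astrocyte-like cells, 409 (385 to 433) in excitatory neurons and 404 (364 to 447) in microglia-like cells. P2 stem-like cells held 234 (210 to 260) and striatal cells 30.3 (23.9 to 37.9), the lowest of the P2 classes of that size. A P2 cluster of 58 cells that stayed unnamed, with Olig1 and Olig2 among its leading genes, held Id3 at 107 (88.5 to 128), Id4 at 108 (89.3 to 129) and Id2 at 135 (114 to 158).

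**Figure D1:**
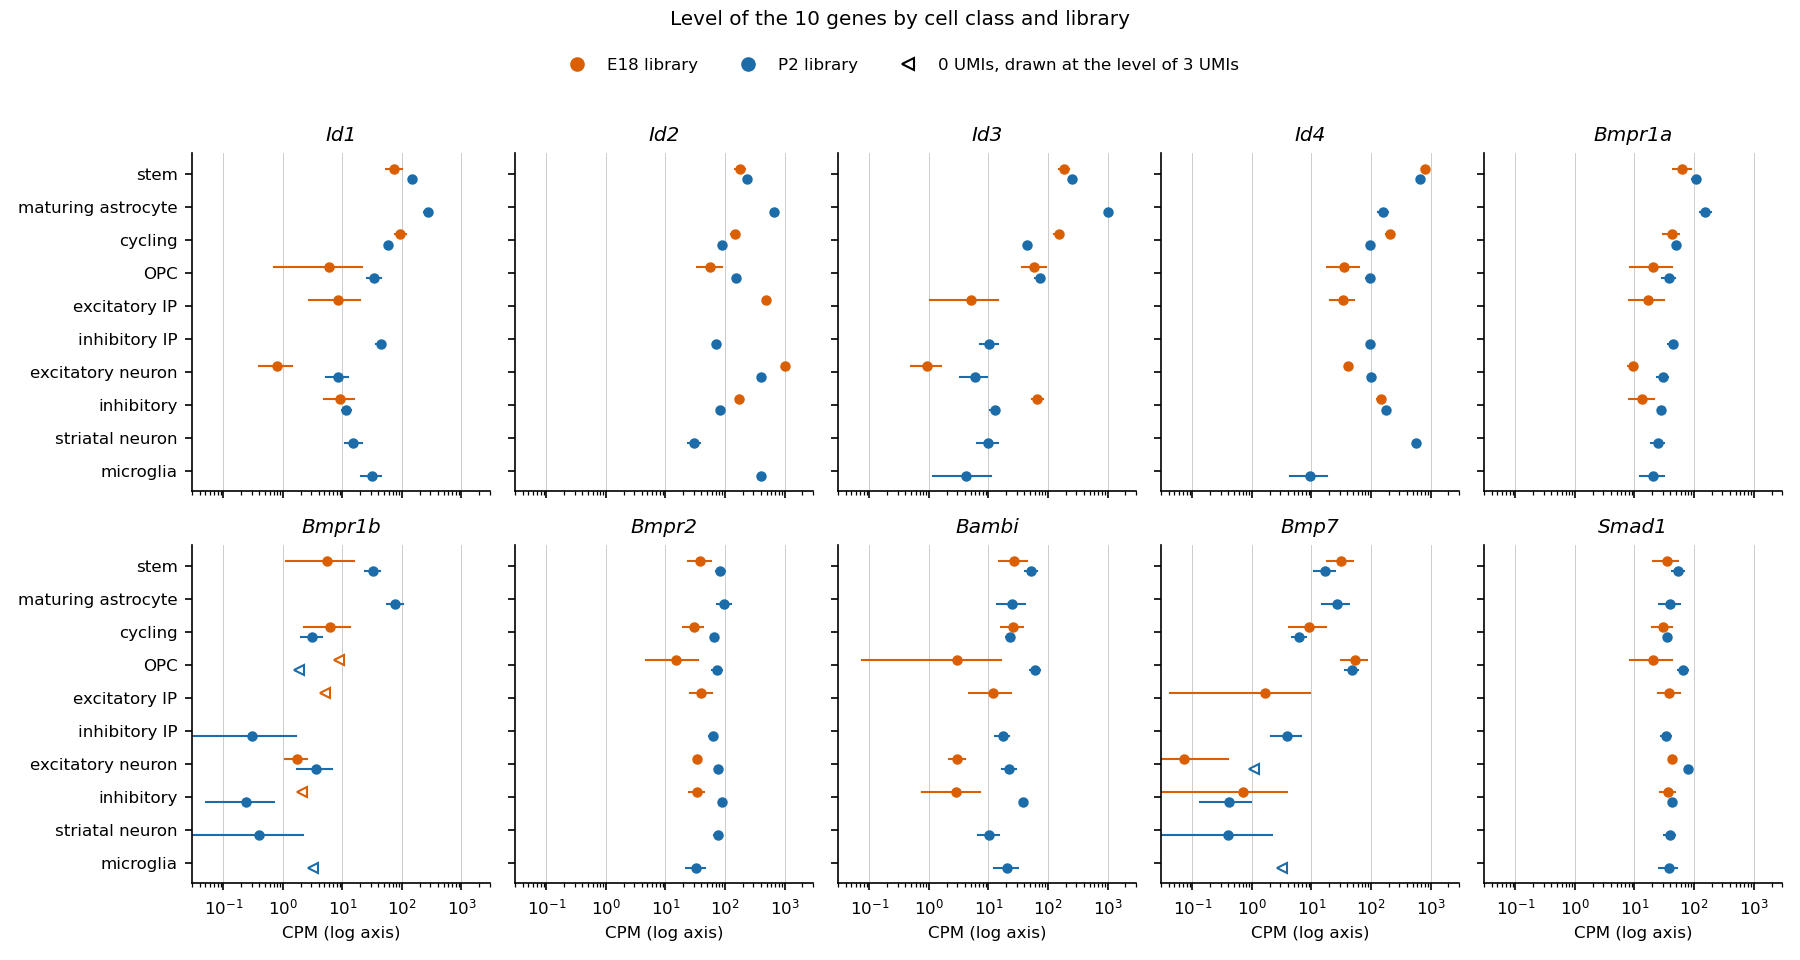
Levels of the 10 genes as CPM on a log axis, by class and library, with exact Poisson 95% intervals as lines, for classes of 30 or more cells. Orange is E18 and blue P2, open triangles are classes with 0 UMIs drawn at the level of 3 UMIs, and Id3 spans from 0.929 in E18 excitatory neurons to 1034 in P2 maturing astrocyte-like cells while Bmpr2 and Smad1 stay between 14.8 and 97.6.

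Summed over the 4 genes, Id UMIs came to 1258 CPM (1166 to 1355) in E18 stem-like cells and 1294 (1236 to 1353) in P2 stem-like cells. E18 excitatory neurons reached a similar sum, 1081 (1064 to 1098), from a different gene: Id2 gave 96.0% of their Id UMIs, while Id4 gave 65.0% in E18 stem-like cells. In P2 striatal cells Id4 gave 91.0%, and in P2 microglia-like cells Id2 gave 90.0%. The highest sum was 2127 (2013 to 2247) in P2 maturing astrocyte-like cells, with 48.6% from Id3, 30.9% from Id2 and 7.47% from Id4. When every cell was thinned to 3000 UMIs, 3 or more Id genes were seen in 18.3% of 82 E18 stem-like cells, 38.9% of 72 P2 stem-like cells and 50% of 34 maturing astrocyte-like cells. The same share was 0.0568% of 1762 E18 excitatory neurons and 0% of 37 P2 microglia-like cells.

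**Figure D2:**
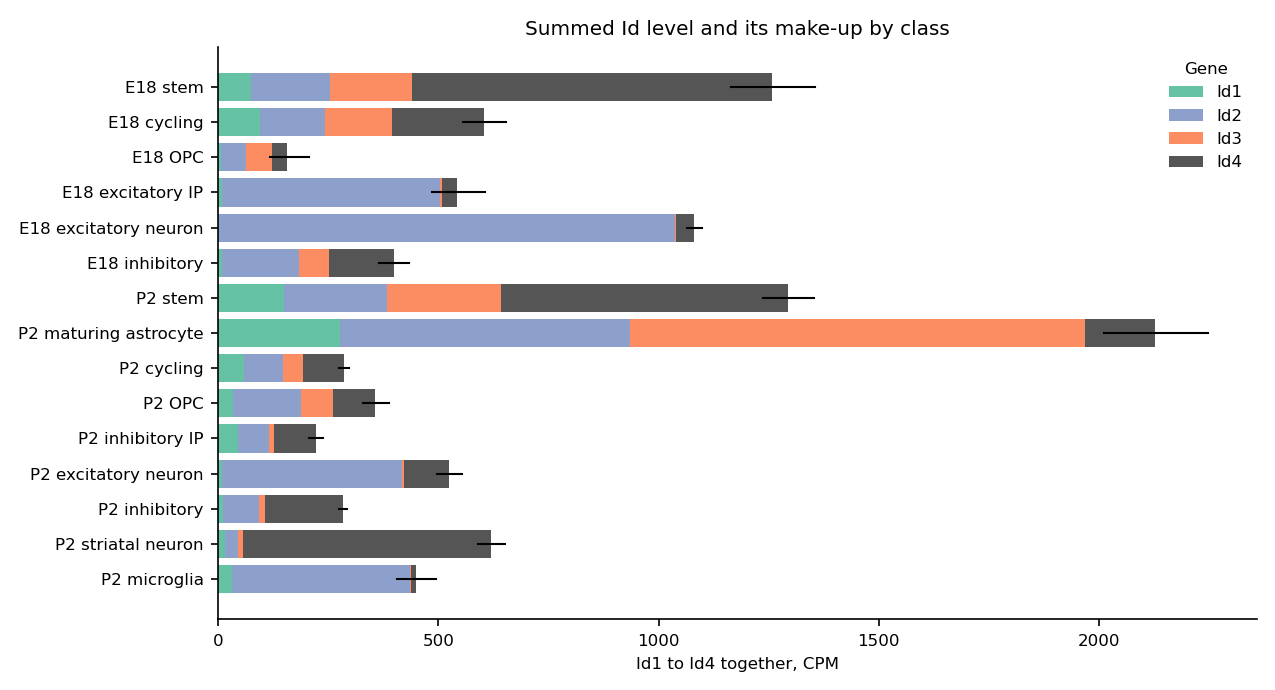
Summed level of Id1 to Id4 in CPM by class, for classes of 30 or more cells, with the part of each gene in colour and the exact Poisson 95% interval of the sum as a black line. E18 excitatory neurons and E18 stem-like cells have like sums of 1081 and 1258 but are filled by Id2 and by Id4, and maturing astrocyte-like cells at P2 have the highest sum, 2127.

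Shares of cells with a UMI were also compared. After thinning, Id4 was seen in 65 of 82 E18 stem-like cells (79.3%, exact binomial 95% interval 68.9 to 87.4) and 55 of 72 P2 stem-like cells (76.4%, 64.9 to 85.6), and before thinning in 92.3% and 92.6%. Id3 was seen after thinning in 20.7% of E18 stem-like cells (12.6 to 31.1), 43.1% of P2 stem-like cells (31.4 to 55.3) and 79.4% of maturing astrocyte-like cells (62.1 to 91.3), and before thinning in 25.3%, 66.7% and 89.5%. Microglia-like cells, which should lack both genes, showed each in 1 of 37 thinned cells (2.70%). Median depth was 6179 UMIs in E18 stem-like, 18350 in P2 stem-like and 20117 in P2 microglia-like cells.

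Bmpr1a and Bmpr2 were found in every class of 30 or more cells. Bmpr1a, the type I receptor gene of most neural cells, was at 63.7 (44.4 to 88.6) in E18 stem-like, 109 (92.9 to 127) in P2 stem-like and 155 (126 to 190) in maturing astrocyte-like cells. In neurons it was 9.43 (7.89 to 11.2) and 13.5 (8.11 to 21.0) for excitatory and inhibitory cells at E18, and between 24.4 and 29.7 at P2. Bmpr2, the type II receptor gene, was between 14.8 and 40.3 in E18 classes of 30 or more cells and between 33.0 and 97.6 at P2. In each library its stem-like and neuronal levels overlapped, with 38.2 (23.7 to 58.4) in stem-like cells and 34.2 (31.2 to 37.4) in excitatory neurons at E18.

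Bmpr1b, the other type I receptor gene, was low outside P2 stem-like and astrocyte-like cells. It had 3 UMIs in the E18 stem-like class, or 5.46 CPM (1.13 to 15.96), and 6 in the E18 cycling class, 6.14 (2.25 to 13.4). At P2 it had 49 UMIs in stem-like cells, 33.0 (24.4 to 43.6), and 47 in maturing astrocyte-like cells, 77.7 (57.1 to 103). It was 3.66 (1.76 to 6.74) in P2 excitatory neurons, 3.12 (2.06 to 4.54) in P2 cycling cells, 0.244 (0.0503 to 0.713) in P2 inhibitory and 0.394 (0.00997 to 2.19) in striatal neurons. Both OPC-like classes had 0 Bmpr1b UMIs, which at a floor of 3 UMIs allows 8.89 CPM at E18 and 1.89 at P2. P2 microglia-like cells also had 0. After thinning it was seen in 12.5% of P2 stem-like cells (5.88 to 22.4) and 32.4% of maturing astrocyte-like cells (17.4 to 50.5), against 43.2% and 60.5% before.

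Bmp7, the ligand gene, was found mainly in OPC-like cells, in maturing astrocyte-like cells and in a part of the stem-like cells. Its highest levels were 53.4 (31.6 to 84.3) in E18 OPC-like and 47.3 (37.2 to 59.3) in P2 OPC-like cells. Stem-like cells held 30.9 (18.0 to 49.5) at E18 and 16.8 (10.9 to 24.8) at P2, and maturing astrocyte-like cells 26.5 (15.1 to 43.0). The stem-like UMIs came almost only from the Aldoc-led parts of the clusters, described below. At E18 that part held 17 and the other parts 0, and at P2 it held 24 and the Crym-led part 1. Neurons were near 0: 2 UMIs in all 2106 E18 neuronal cells and 6 in all 1493 P2 neuronal cells. At P2 the OPC-like level was above the stem-like level by 1.49 on the log2 scale (0.82 to 2.21). At E18 that difference was 0.79 (-0.25 to 1.83), and its interval holds 0. At P2 Bambi, at 0.21 (-0.24 to 0.66), and Smad1, at 0.30 (-0.13 to 0.74), had intervals that hold 0 in that comparison. At E18 7 of the 9 members with 10 or more UMIs were 2-fold or more lower in OPC-like than in stem-like cells, where 19.4% of 8034 genes were, and 0 higher, where 9.35% were. At P2 5 of 10 were lower and 1 higher, where 16% of 11917 genes were past 2-fold in each direction. Id4 stood at -4.52 (-5.49 to -3.70) at E18 and -2.75 (-3.00 to -2.50) at P2, and Id1 at -3.65 (-6.75 to -1.71) and -2.13 (-2.59 to -1.70).

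Bambi (chr18:3507923-3516404, plus strand) was at 27.3 (15.3 to 45.0) in E18 stem-like, 25.6 (16.6 to 37.8) in E18 cycling and 3.002 (2.16 to 4.06) in E18 excitatory cells. At P2 it was highest in OPC-like cells at 60.6 (49.1 to 74.0) and stem-like cells at 52.5 (41.5 to 65.5), which overlap, and was at 37.5 (34.2 to 41.1) in inhibitory neurons. P2 microglia-like cells held 20.2 (12.2 to 31.6). Smad1 ran from 20.8 (8.34 to 42.8) in OPC-like cells to 43.4 (40.0 to 47.0) in excitatory neurons over E18 classes of 30 or more cells, and these intervals overlap. At P2 it ran from 33.9 (27.9 to 40.8) in Mcm-led cells to 80.6 (70.3 to 92.0) in excitatory neurons, which do not overlap.

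Set against all neuronal cells of the same library, most of the 10 genes were higher in the stem-like class. At E18 7 of 10 genes stood 2-fold or more higher, where 27.4% of the 12905 genes with 10 or more UMIs did, and 1 stood 2-fold or more lower, where 16.8% did (44.2% either way). The higher genes were Bmp7 (log2 ratio 7.90, 5.82 to 11.05), Id1 (5.58, 4.82 to 6.37), Id3 (4.74, 4.33 to 5.14), Id4 (3.99, 3.82 to 4.16), Bambi (3.19, 2.25 to 4.06), Bmpr1a (2.70, 2.13 to 3.24) and Bmpr1b (1.81, -0.57 to 3.53). The Bmpr1b ratio rests on 3 stem-like UMIs and its interval holds 0. Id2 was the lower gene, at -2.41 (-2.71 to -2.13). The median over the 10 genes was 2.95, and over all genes 0.17.

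At P2 6 of 10 genes were 2-fold or more higher in stem-like than in neuronal cells, where 26.2% of 14116 genes were, and 0 were lower, where 15.5% were (41.8% either way). These were Bmp7 (5.62, 4.30 to 7.20), Bmpr1b (5.37, 4.49 to 6.34), Id3 (4.52, 4.27 to 4.78), Id1 (3.67, 3.39 to 3.95), Bmpr1a (1.96, 1.69 to 2.22) and Id4 (1.55, 1.45 to 1.66). Id2 stood at 0.91 (0.74 to 1.07) here, on the other side of 0 from E18, and the neuronal cells of the 2 libraries are of different kinds. Bmpr2 stood at 0.16 (-0.54 to 0.79) at E18 and -0.02 (-0.30 to 0.24) at P2, and Smad1 at -0.30 (-1.05 to 0.35) and 0.16 (-0.19 to 0.49), all with intervals that hold 0. Scaling by TMM, which shifts all ratios of a comparison by the same amount, lowered them by 0.20 at E18 and 0.18 at P2.

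Other genes of the pathway were counted by list, to be read against the 27.4% of all genes that were higher and the 16.8% lower at E18, and the 26.2% and 15.5% at P2. Of 10 tested extracellular modulators at E18, 5 were 2-fold or more higher in stem-like cells and 0 lower, among them Fstl1 at 4.26 (3.95 to 4.56), Bmper at 4.11 (2.63 to 5.49) and Nog, the gene of Noggin, at 2.29 (1.62 to 2.91). At P2 9 of 12 were higher, led by Chrdl1, with 10 stem-like UMIs and 0 neuronal UMIs. Of 6 tested genes of the receptor list, 1 was higher and 3 were lower at E18, with a median of -0.94. At P2 2 of 6 were higher and 4 lower, with a median of -1.23. The co-receptor gene Rgma was higher in both libraries, at 2.17 (1.78 to 2.54) and 3.81 (3.49 to 4.12). The type I receptor gene Acvr1 was lower in both, at -1.63 (-3.51 to -0.26) and -1.52 (-2.22 to -0.89). Of the targets other than Id genes, Hes1 stood at 8.498 (7.57 to 9.59) and 8.39 (7.70 to 9.18), and Hey1 at 3.25 (2.71 to 3.76) and 2.48 (2.14 to 2.82). Both are also targets of Notch signalling. The SMAD list was balanced, with 2 higher and 2 lower of 10 at E18 and 1 and 1 of 10 at P2.

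The main question of the study is how the stem cells differ before and after birth. Between the stem-like classes 3 of the 10 genes were 2-fold or more higher at P2, where 23.1% of the 10733 genes with 10 or more UMIs were, and 0 were 2-fold or more lower, where 5.79% were (28.9% either way). A share of 3 in 10 is near that background. Bmpr1b had 3 UMIs at E18 and 49 at P2, a log2 ratio of 2.59 (0.96 to 4.92). Bmpr2 had 21 and 124 UMIs, a ratio of 1.13 (0.45 to 1.87), and Id1 had 41 and 222, a ratio of 1.00 (0.52 to 1.52). Bambi followed at 0.94 (0.13 to 1.85) and Bmpr1a at 0.78 (0.24 to 1.35), each with an interval above 0. Id3 stood at 0.47 (0.15 to 0.80) and Id2 at 0.38 (0.05 to 0.72). Smad1, at 0.64 (-0.10 to 1.44), and Bmp7, at -0.88 (-1.83 to 0.10), had intervals that hold 0. Id4 was the gene that stood lower with an interval below 0, at -0.33 (-0.49 to -0.16).

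The median over the 10 genes was 0.71, and over all genes 0.28. TMM scaling lowered every ratio by 0.16, so that Id1 stood at 0.84 and Bmpr2 at 0.97, and the 2 genes past 2-fold were Bmpr1b at 2.43 and Bmp7 at -1.04. The astrocyte marker sum of the stem-like class moved in the same direction as Bmpr1b, from 1352 to 3438, and the sum of 10 immediate early genes, which report dissociation and activity, from 1476 to 2621 CPM. The part of either in the ratios was not tested.

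**Figure D3:**
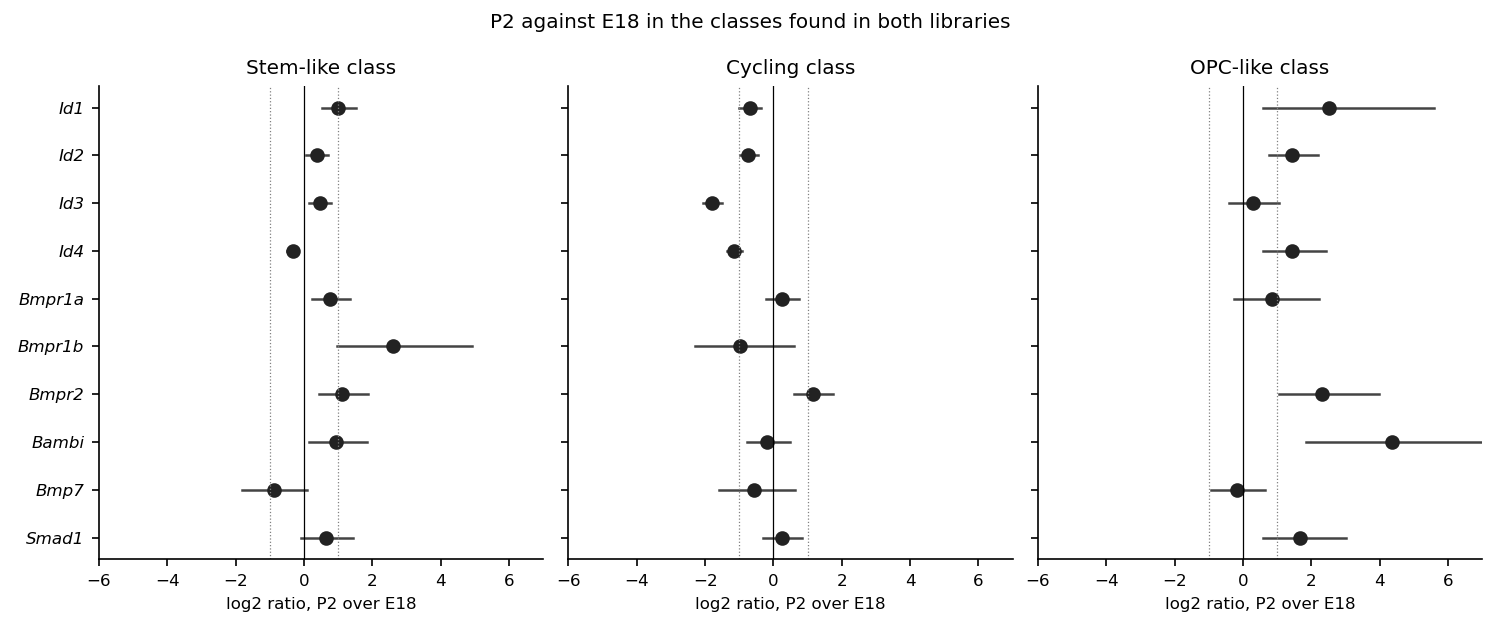
Log2 ratio of P2 over E18 levels for each gene in the stem-like, cycling and OPC-like classes, with exact 95% counting intervals as lines and dotted lines at 2-fold. Bmpr1b in stem-like cells stands at 2.59, Id3 and Id4 lie below -1 in the cycling class, and 6 genes lie above 1 in the OPC-like class, where Bmpr1b, with 0 UMIs in both libraries, has no point and the Bambi line runs past the axis.

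Both stem-like clusters were made of parts that differed in these genes. At E18 the part led by Aldoc and Fabp7 (55 cells) held Id1 at 113, Id3 at 256 (204 to 316) and Id4 at 1064 (957 to 1180). The part led by the metallothionein genes Mt2 and Mt1 (20 cells) held 0 Id1 UMIs, Id3 at 51.8 (19.0 to 113) and Id4 at 285 (196 to 400). That part was led by 1 astrocyte marker, Htra1, and 0 stem markers. Without it the ratio of P2 to E18 was 0.66 for Id1, 1.01 for Bmpr2 and 2.25 for Bmpr1b, and 3 genes were past 2-fold, with Bmp7, at -1.22 (-2.17 to -0.24), in place of Id1. With the Aldoc-led part alone in each library, 55 against 46 cells, 1 gene was past 2-fold, Bmpr1b at 2.70 (0.73 to 5.80). Id1 then stood at 0.38 (-0.15 to 0.95), Id3 at 0.00 (-0.36 to 0.38), Bmpr2 at 0.73 (-0.04 to 1.59) and Id4 at -0.82 (-1.02 to -0.63).

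Bmpr1b was above 2-fold in each of the 12 alternatives run for the stem-like class, from 2.25 to 3.07. Id4 was below 0 in all 12, from -0.82 to -0.27. The alternatives that changed only the minimum number of UMIs could not move a ratio. Id1 ranged from 0.38 to 1.44 and Smad1 from -0.40, with cells thinned to 3000 UMIs, to 0.76.

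In the stem-like class the SMAD list held 6 genes of 10 tested that were 2-fold or more higher at P2 and 0 lower, with a median of 1.06, where 23.1% of all genes were higher and 5.79% lower. Among them were Zeb2 at 1.19 (0.75 to 1.66), Smad7, the gene of an inhibitory SMAD that the pathway itself induces, at 1.89 (0.42 to 3.83), and the shared partner Smad4 at 1.01 (0.41 to 1.66). The receptor list had 2 of 6 higher, Neo1 at 1.15 (0.46 to 1.91) and Rgmb at 1.18 (0.02 to 2.58), a share near that of all genes. Among the extracellular modulators 2 of 10 were higher and 2 lower, and the lower ones were Fst at -2.17 (-3.92 to -0.57) and Nog at -1.22 (-2.04 to -0.39), genes of secreted antagonists. Of 3 tested ligand genes 1 was higher, and of the 3 tested targets 0 were past 2-fold in either direction. Neurog2, a proneural gene of cortical progenitors whose E protein partners Id proteins bind, stood lowest of the 8 tested partners and opponents of Id proteins, at -4.98 (-7.33 to -3.31), and Tcf12, an E protein gene, at 1.19 (0.55 to 1.89). The immediate early list had 6 of 10 higher, with Junb at 3.92 (2.68 to 5.56) and Fosb at 3.54 (2.47 to 4.87).

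In the cycling class the Id genes stood lower at P2. Of the 10 genes 1 was 2-fold or more higher, where 16.9% of 12438 genes were, and 2 lower, where 11% were (27.8% either way). Id3 was at 151 CPM at E18 and 43.7 at P2, a log2 ratio of -1.79 (-2.07 to -1.51), and Id4 at 209 and 94.5, a ratio of -1.14 (-1.37 to -0.91). Id2 stood at -0.73 (-0.99 to -0.46) and Id1 at -0.69 (-1.01 to -0.35). Bmpr2 was the higher gene, at 1.15 (0.61 to 1.74). The Notch and BMP target Hes1 stood at -2.89 (-3.18 to -2.60) and Hes5 at -3.85 (-4.10 to -3.60). The partners and opponents of Id proteins, Hes5 among them, had 1 of 9 tested genes higher and 5 lower. In the SMAD list 4 of 9 tested genes were 2-fold or more higher and 0 lower, among them Zeb2, Smad7 and Smad4. The receptor list had 3 of 6 higher and 0 lower, and the extracellular modulators 0 of 9 higher and 3 lower.

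The P2 cycling class joined 3 clusters with unlike Id levels. Id3 was at 113 (101 to 126) in the 88 cells with Egfr as a leading gene, 9.23 (6.78 to 12.3) in the 176 cells led by Ube2c and Nusap1 and 4.58 (0.944 to 13.4) in the 42 cells led by Cenpa and Tpx2. Id1 followed the same order, at 101 (89.9 to 113), 39.5 (34.2 to 45.3) and 16.8 (8.37 to 30.02). Bmp7 was at 16.2 (11.9 to 21.6) in the Egfr-led cells and 1.37 (0.553 to 2.83) in the Ube2c-led ones. With the Egfr-led cells alone on the P2 side, Id3 stood at -0.42, Id1 at 0.10 and Id4 at -1.62, and 1 gene was past 2-fold, Id4. The ratio of Id3 therefore moved with the dividing cells that were taken.

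In the OPC-like class 6 of the 9 genes with 10 or more UMIs were 2-fold or more higher at P2, where 28.9% of 10549 genes were, and 0 were lower, where 5.81% were (34.7% either way). Bambi had 1 UMI at E18 and 96 at P2, a log2 ratio of 4.35 (1.84 to 9.67). Id1 had 2 and 54 UMIs, at 2.52 (0.60 to 5.60), and Bmpr2 5 and 118, at 2.33 (1.07 to 3.98). Smad1 stood at 1.67 (0.58 to 3.02), Id4 at 1.45 (0.60 to 2.43) and Id2 at 1.44 (0.77 to 2.20). The intervals of Bmpr1a, Id3 and Bmp7 hold 0. The median over the members was 1.45, and over all genes 0.40, and TMM scaling lowered each ratio by 0.28. With cells thinned to 3000 UMIs, Bambi stood at 2.34 (-0.52 to 7.79), Id4 at 3.30 (1.33 to 6.397) and Id3 at 1.90 (0.15 to 4.30). Over all alternatives with a value, Bambi ran from 2.34 to 4.35, Id1 from 1.25 to 3.22, Id4 from 1.17 to 3.30 and Id3 from -0.08 to 1.90. The P2 cluster was led by Mbp and Bcas1 beside Lhfpl3, C1ql1 and Pdgfra, the E18 cluster by Olig1, C1ql1 and Pdgfra, and the part of that difference in the ratios was not tested. In the SMAD list 7 of 9 tested genes were higher, with Smad7 at 103 UMIs against 0, and the ligand gene Bmp4 stood at 3.10 (1.52 to 5.40).

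Within P2 the maturing astrocyte-like cells held less Id4 and more Id3 than the stem-like cells. Of the 10 genes 3 were 2-fold or more higher, where 6.39% of 10884 genes were, and 2 lower, where 13.2% were. Id3 stood at 2.00 (1.82 to 2.19), Id2 at 1.49 (1.28 to 1.70) and Bmpr1b at 1.24 (0.63 to 1.84). Id4 stood at -2.04 (-2.36 to -1.73) and Bambi at -1.08 (-1.99 to -0.27). Id1 was at 0.89 (0.59 to 1.18), with an interval above 0. The immediate early sum was 4273 in the maturing astrocyte-like cells against 2621 in stem-like cells, with 4 of 10 genes higher, and its part in the Id values was not tested. Of 9 tested extracellular modulators 3 were 2-fold or more higher and 4 lower. The higher ones were Chrdl1 at 2.15 (0.95 to 3.42), Fst at 2.30 (0.77 to 3.997) and Nog at 1.08 (0.25 to 1.91). Among the 4 lower ones were Fstl1, Bmper and Nbl1, so the list as a whole did not go 1 way.

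The difference was visible cell by cell. Of the 38 maturing astrocyte-like cells, 33 held more Id3 than Id4 UMIs, 0 held more Id4, 1 held equal numbers and 4 held neither. In the P2 stem-like part led by Aldoc and Sparcl1, 7 of 46 cells held more Id3 and 38 more Id4. Sparcl1 is itself on the astrocyte marker list. In the part led by Crym and Clu, 3 of 35 held more Id3 and 25 more Id4. The E18 stem-like cells were like those of P2, with 7 against 47 in the Aldoc-led part, 1 against 12 in the Mt2 and Mt1 part and 1 against 13 in the part led by Mt2 and Hopx. Id3 was detected in 17 of the 55 Aldoc-led E18 cells, and Id4 in all 55. Medians of 17556.5 UMIs in maturing astrocyte-like and 18350 in stem-like cells at P2 were close.

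**Figure D4:**
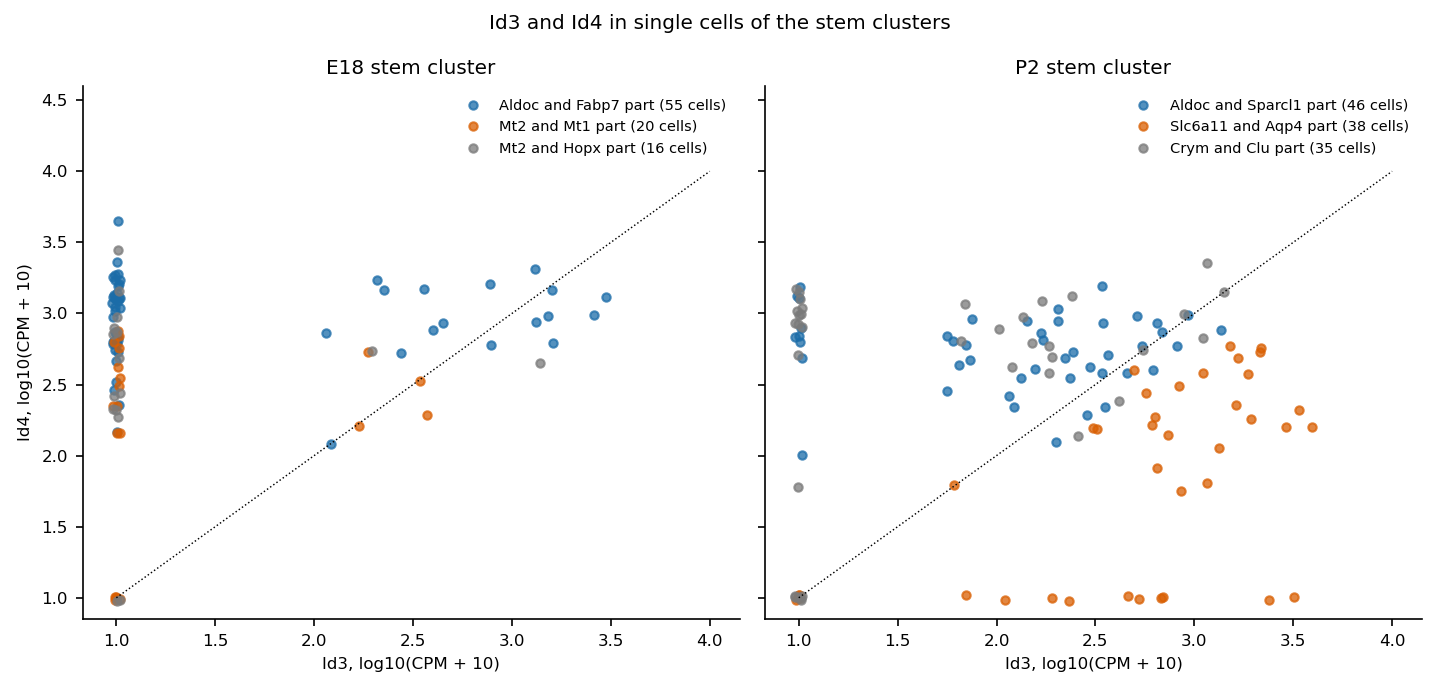
Id3 against Id4 in single cells of the E18 and P2 stem clusters, each as log10(CPM + 10) with a small random offset so that points do not cover each other, coloured by the part of the cluster and named by its 2 leading genes. On the dotted line the genes are equal, and of the 38 P2 cells led by Slc6a11 and Aqp4 33 fall below it and 0 above.

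Among neurons Id2 and Id4 varied by cluster. In E18 excitatory neurons Id2 ran from 502 (463 to 543) in the cluster led by Rorb to 1690 (1613 to 1769) in the cluster led by Hs3st4, Crym and Tle4. The clusters led by Calb2, at 1674 (1591 to 1760), and by Ntf3 and Cck, at 1668 (1615 to 1721), overlapped the highest, and the other clusters lay between 643 and 971. Crym and Tle4 are known from deep cortical layers and Rorb from layer IV. The E18 inhibitory cells led by Adarb2 held 339 (290 to 394) and those led by Sst and Lhx6 85.5 (67.6 to 107).

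Id4 was at most 98.6 (83.8 to 115) in E18 excitatory clusters, and 3.07 (1.23 to 6.33) in the one led by Npy and Nefl, whose leading genes include Fezf2. Among P2 inhibitory clusters it ran from 68.2 (57.8 to 79.9) in the Foxp2-led cells to 529 (489 to 571) in those led by Six3 and Tle4, which overlapped the striatal neuron-like cells at 564. Six3 is known from cells of the striatum and its germinal zone. In the E18 library Id4 was 283 (238 to 334) in Adarb2-led and 73.4 (56.9 to 93.2) in Lhx6-led interneurons.

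Id3, sparse in other neurons, was highest among neuronal clusters in the Lhx6-led interneurons of both libraries. It was at 98.6 (79.3 to 121) in the E18 cluster led by Sst and Lhx6, where 46 of 168 cells held a UMI, against 8.02 (2.19 to 20.5) in the Adarb2-led cluster. At P2 it was at 44.9 (33.8 to 58.5) in the cluster led by Lhx6 and Npy, where 23 of 85 cells held a UMI, and between 4.46 and 11.7 in the other inhibitory clusters. Lhx6 marks interneurons that come from the medial ganglionic eminence. Neuronal classes were not compared between ages, because the E18 clusters led by Calb2 and Rorb and the P2 cluster led by Lhx6 and Npy had a marker of another class, Calb2 or Foxp1, among their leading genes and none of their own.

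**Figure D5:**
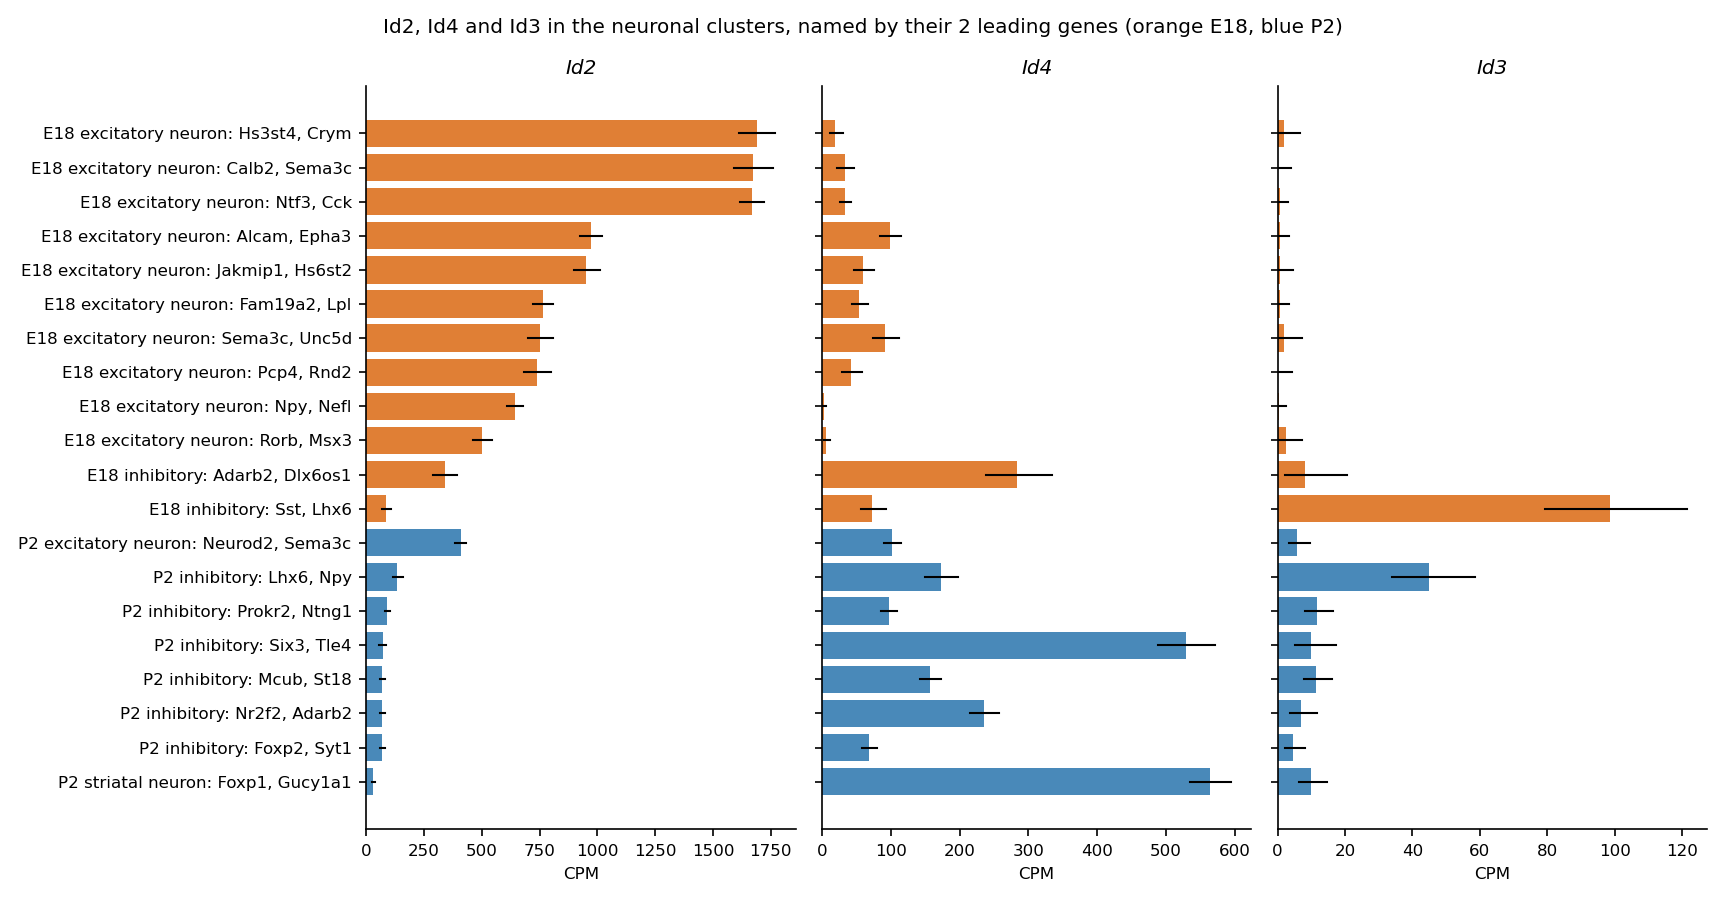
Levels of Id2, Id4 and Id3 in CPM in each neuronal cluster, named by its 2 leading genes, with exact Poisson 95% intervals, orange for E18 and blue for P2. Id2 bars are long in E18 excitatory neurons, up to 1690, Id4 bars in the P2 striatal and Six3-led clusters at 564 and 529, and Id3 bars in the clusters led by Sst and Lhx6 (98.6) and by Lhx6 and Npy (44.9).

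An EYFP UMI was taken as a sign of descent from Emx1-expressing cells at P2, although a cell without one can be a labelled cell in which it was missed. Microglia-like cells, which do not come from the neural lineage, held one in 0 of 44 cells (exact binomial 95% interval 0 to 8.04%), at a median depth of 20117 UMIs. Striatal neuron-like cells held one in 23 of 200 (exact binomial 95% interval of the share 7.43 to 16.8%) at a median of 12492.5, and excitatory neurons in 179 of 217 (82.5%, 76.8 to 87.3). Of the 81 stem-like cells 40 held an EYFP UMI (49.4%, 38.1 to 60.7). Between them and the 41 others 3 of 10 genes were 2-fold or more higher, where 5.94% of 10183 genes were, and 0 lower, where 8.2% were. Bmp7 had 25 UMIs in the EYFP cells and 0 in the others, which at a floor of 3 UMIs is a log2 ratio of 2.66, with a lower counting limit of 2.26. Id1 was at 202 and 79.5 CPM, a ratio of 1.35 (0.89 to 1.83), and Bambi at 71.0 and 28.1, a ratio of 1.34 (0.56 to 2.19). Id3 stood at 0.75 (0.43 to 1.08), Id2 at 0.68 (0.35 to 1.02) and Id4 at -0.21 (-0.39 to -0.02). Bmpr1b was at 33.1 and 32.8, a ratio of 0.02 (-0.85 to 0.91).

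This split followed the parts of the cluster, since 36 of the 46 cells of the Aldoc-led part held an EYFP UMI and 4 of the 35 cells of the Crym-led part did. Inside the Aldoc-led part Bmp7 had 24 UMIs in 36 EYFP cells and 0 in the 10 others. Bambi stood at 84.2 against 20.8 there and Id1 at 168 against 72.7. Id2, at 238 against 317, and Id3, at 251 against 275, were not higher in the EYFP cells of that part. The 4 EYFP cells of the Crym-led part had a median of 41404.5 UMIs, against 15315 in its 31 others. They held 55 of its 92 Id1, 72 of its 123 Id2 and 91 of its 157 Id3 UMIs. In the 88 cycling cells with Egfr as a leading gene, Bmp7 was at 23.0 in 47 EYFP cells and 7.77 in 41 others, while Id3 was at 78.8 and 156. Over the whole cycling class Bmp7 stood at 2.13 (1.11 to 3.28), with 1 gene of 10 past 2-fold higher where 3.26% of genes were and 0 lower where 2.67% were, and Id3 at -0.60 (-0.91 to -0.30). In OPC-like cells Bmp7 stood at -0.63 (-1.33 to 0.06), and Id1, at -1.09 (-1.95 to -0.26), was the 1 of 9 members past 2-fold, where 3.67% of genes were higher and 6.02% lower. In the Mcm-led cells Bmp7 had 10 and 3 UMIs, a ratio of 1.80 (-0.15 to 4.30), the 1 of 9 past 2-fold, where 3.44% were higher and 3.64% lower.

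Bambi was also higher in EYFP-bearing inhibitory cells, at 55.3 against 28.5 CPM, a ratio of 0.95 (0.68 to 1.22). By cluster it was 81.7 against 39.7 in the cells led by Prokr2 and Ntng1, 51.8 against 24.9 in those led by Mcub and St18, and 26.5 against 25.1 in the Foxp2-led cells. It was 39.6 against 22.2 in the Nr2f2-led, 47.0 against 23.2 in the Lhx6-led and 29.0 against 36.6 in the Six3-led cells. No member passed 2-fold in that class, where 1.7% of genes were 2-fold or more higher and 4.82% lower. In excitatory neurons Id4 was at 91.4 in 179 EYFP cells and 219 in 38 others, a ratio of -1.26 (-1.71 to -0.79). Bambi had 60 and 1 UMIs there, a ratio of 2.42 (-0.11 to 7.75). These were the 2 of 9 members past 2-fold, where 6.74% of genes were higher and 9.72% lower, and the cells without EYFP were shallower, with a median of 4782.5 UMIs against 13238. In striatal cells Bambi was at 26.6 against 7.72, a ratio of 1.78 (0.44 to 3.03), from 9 and 17 UMIs. In maturing astrocyte-like cells it lay the other way, at 6.89 against 41.4, a ratio of -2.58 (-5.77 to -0.44), from 2 and 13 UMIs.

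Over the 15 classes of 30 or more cells, the pattern of each gene on the log2(CPM + 10) scale was set against 6846 genes. Classes of 1 library share their depth, free RNA and preparation, so these correlations are descriptions only. Id1 was most like Bmpr1a (Pearson r 0.933), Acadl (0.932) and Efemp2 (0.925). Id3 was most like Slc1a4 (0.942), Pank1 (0.934) and Kbtbd11 (0.923). Bmpr1b went with Slc6a11 (0.971), Slc13a5 (0.968) and Slc25a18 (0.960), and Slc6a11 is one of the astrocyte markers used for naming. Bmp7 went with Scrg1 (0.970), B3gat2 (0.946) and Plekhb1 (0.942), and Id2 with Flot1 (0.831), Ifngr2 (0.817) and Dhrs3 (0.767). Gnao1 (0.850) and Kcnk2 (0.849) were among the genes most like Id4. The closest genes to Bmpr1a were Slc15a2 (0.948), Ppp1r12a (0.940) and Id1, those to Bmpr2 were Pura (0.973), Clock (0.9498) and Dpm1 (0.934), those to Bambi were Eea1 (0.893), BC005561 (0.858) and Swt1 (0.856), and those to Smad1 were March8 (0.868), Ptpn4 (0.842) and Fam168a (0.839). Between members, Id1 and Id3 had r of 0.814 and Id2 and Id4 had -0.347.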

How the data were processed

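The authors deposited raw UMI counts per gene and barcode for each library, made with Cell Ranger 4.0.0 per the file headers and mapped to mm10 per the submitters' processing notes. The library kit is unknown here. Cells with under 500 genes or over 10% mitochondrial UMIs (291 at E18, 336 at P2) and the highest 5% of Scrublet doublet scores (156 and 144, of which the automatic threshold marked 42 and 5) were dropped. Each library was clustered alone in scanpy 1.11.5 (2000 variable genes, 30 components, 15 neighbours, Leiden resolution 1) without the 10 genes. Clusters were named from 18 marker lists, with a minimum marker level of 0.3 set after the data were seen. Stem clusters were divided again, and a part was called astrocyte-like with 3 or more astrocyte markers among its 10 leading genes. A total of 1 stray vessel and 1 stray immune cell was set aside. Ratios compare class sums, with exact conditional 95% intervals. A gene is past 2-fold at a log2 ratio of 1 or more either way, over genes with 10 or more UMIs in both classes together, and sums of 0 are set to a floor of 3 UMIs. The ratios were tested on simulated Poisson class sums, the model their intervals assume, without variation between cells or libraries. TMM came from edgeR 4.0.16. Intervals and floors cover counting error only. All 10 genes are named, and of each pathway list up to 4 genes per direction past 2-fold with intervals beyond 0, ranked by the bound nearest 0. The members and lists were chosen with earlier results of these data known.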

Additional observations from a re-analysis of the deposited data

How the results depend on the processing

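Among the single-gene ratios recomputed under alternatives, 403 stayed inside the counting interval of the reported value, 48 left it, and 0 of those reported past 2-fold changed sign. The 403 include 44 and 49 from settings that changed only the minimum number of UMIs, which cannot move a ratio. The TMM shifts were too small to turn the sign of a ratio past 2-fold. The count of genes past 2-fold in the cycling class, 3 as reported, was 5 at Leiden resolution 0.5, 6 at a mitochondrial limit of 5%, 5 with doublets kept and 1 when only the P2 cells with Egfr as a leading gene were used. The last setting also used fewer cells, and the cause of these differences was not tested. In the stem-like class, also 3, it was 1 with the Aldoc-led part alone in each library, and 2 under TMM scaling and with doublets kept. The shares of all genes past 2-fold either way, 27.8% (cycling) and 28.9% (stem-like), are for the reported setting only. Counts under the alternatives, here and above, cannot be read against them. The restrictions to parts of a cluster were chosen after seeing the data. At resolution 0.5 no E18 cluster was named stem-like, so its 2 comparisons have no value there. The small classes limit low genes, and Bmpr1b in E18 stem-like cells rests on 3 UMIs. No paired analysis was possible because each age has 1 library, and no replicate could be left out.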
